A study of Mus musculus with 20 samples.

Results

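Cxcl9, Cxcl10 and Cxcl11, the CXC chemokines known for their induction by interferon gamma, and Cxcl16 were followed in endothelial cells of the inflamed mouse ear. The 4 genes were taken by symbol, and each was read from the probe set whose platform annotation gives that symbol and no other. Each had 1 such probe set (17449710 for Cxcl9, 17449718 for Cxcl10, 17449725 for Cxcl11 and 17265268 for Cxcl16), out of 23521 with 1 gene symbol. All 4 were among the 14886 probe sets tested, which exceeded their array's median on at least 4 arrays. Cxcl9 and Cxcl16 did so on 20 of 20 arrays, Cxcl10 on 16 and Cxcl11 on 12. For Cxcl11 these were all DNFB arrays and NICD vehicle replicates 1 and 4, so it entered the tested set through the groups where it was high.

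Gene expression was measured on 20 Affymetrix arrays, 1 per sample of sorted ear endothelium. The groups were DNFB-treated ears of NICD1-EC-OE mice (4 arrays), vehicle-treated ears of NICD1-EC-OE mice (4 arrays), DNFB-treated ears of control mice (6 arrays) and vehicle-treated ears of control mice (6 arrays). NICD1-EC-OE mice, called NICD mice here, carry a tamoxifen-inducible, constitutively active intracellular domain of the receptor Notch1 at the Rosa26 locus in endothelium. The genotype label names the alleles as Pdgfb-CreERT2 and R26-NICD, while the growth protocol names a CDH5-iCre transgene as the driver, so the promoter behind the recombination is not settled by the labels. The control animals are labelled only as control. According to the treatment protocol, which is common to all samples, mice received 5 tamoxifen injections, were sensitised through the skin with DNFB (dinitrofluorobenzene, a contact allergen) and were challenged on the ear on day 5. Ears were taken 24 hours later, cells that were CD31+ and negative for CD45 and Ter119 were sorted, and 1 ng of RNA was amplified. The labels of 1 array, NICD vehicle replicate 4, contradict each other, with vehicle in the title and DNFB in the description. It is treated here as a vehicle ear, and values without it are given where a call on the chemokines or a list count differs.

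Chemokines are small secreted proteins that bind to the vessel wall and direct the movement of leukocytes. CXCL9, CXCL10 and CXCL11 share the receptor CXCR3, which is carried by activated T cells and natural killer cells. Interferon gamma, made mainly by those cells, induces all 3, and Cxcl10 also answers to type I interferons and to NF-kB. CXCL16 is made as a membrane-anchored protein with a chemokine domain on a stalk. It binds CXCR6 on T cells and natural killer T cells, and is released from the cell surface by the proteases ADAM10 and ADAM17.

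The sequences upstream of the genes are shown first because both interferons and NF-kB act on Cxcl9 and Cxcl10 through short elements close to the start of transcription. RefSeq's promoter table (mouse GRCm38.p6) held 2 of the 4 genes. The 250 bases before the start are given below on the gene's own strand, which is the minus strand for both. Capitals mark the matches to the shared core of interferon-stimulated response elements, GAAANNGAA, and to the NF-kB consensus.
Cxcl9, chr5:92328080-92328329: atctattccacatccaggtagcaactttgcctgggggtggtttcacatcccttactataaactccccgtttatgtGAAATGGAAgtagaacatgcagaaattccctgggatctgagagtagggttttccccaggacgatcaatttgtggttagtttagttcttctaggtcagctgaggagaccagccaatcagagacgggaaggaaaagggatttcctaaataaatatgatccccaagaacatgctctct
Cxcl10, chr5:92348890-92349139: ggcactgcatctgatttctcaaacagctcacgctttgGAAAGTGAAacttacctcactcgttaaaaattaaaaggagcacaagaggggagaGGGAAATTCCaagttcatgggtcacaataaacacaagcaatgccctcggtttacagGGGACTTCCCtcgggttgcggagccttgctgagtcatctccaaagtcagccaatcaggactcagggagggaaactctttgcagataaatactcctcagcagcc

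The Cxcl9 stretch holds 1 match to the interferon response core, GAAATGGAA, at -175 to -167 from the start. The Cxcl10 stretch holds 1 such match, GAAAGTGAA, at -213 to -205. It also holds 2 matches to the NF-kB consensus, GGGAAATTCC at -159 to -150 and GGGACTTCCC at -103 to -94. Of 32851 mouse promoters of the same length, 7.13% held the interferon core on either strand and 3.9% held the NF-kB consensus. The gamma-activated site TTCNNNGAA was in neither stretch and was in 7.02% of all promoters. None of these matches overlapped another. A match describes the letters only.

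Values are on the log2 scale of the deposited robust multi-array averages (RMA), so a difference of 1 is a doubling. Replicates of a group correlated with r of 0.944 to 0.981 over all probe sets. The arrays of the 2 genotypes stood apart in their overall distribution: array medians were 3.52 to 3.62 on NICD arrays and 3.87 to 3.98 on control arrays, and the lowest values were 1.18 to 1.30 on NICD arrays and 0.412 to 0.590 on control arrays. Values within a genotype are therefore compared directly, and every NICD minus control difference is given also after each array's median was subtracted. Genotype, sex and array set cannot be told apart. Both control arrays numbered 3 stood apart for interferon-induced genes. The control DNFB array was the lowest of its group for 17 of 19 interferon gamma induced genes, against 23.9% of all probe sets, and the control vehicle array for 19 of 19, against 14.1%. This comparison was chosen after the data were seen, and values without both arrays are given beside the results on the chemokines and where a list count changes. As a gauge of background, also chosen after the data were seen, the 95th percentile of 1091 olfactory receptor probe sets was 3.5 in both NICD groups and 3.87 in both control groups.

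All 4 chemokines rose with DNFB in both genotypes. Cxcl9 rose by 4.47 ± 0.54 in NICD ears and by 3.66 ± 0.44 in control ears, and Cxcl10 by 3.77 ± 0.26 in NICD ears and 2.36 ± 0.21 in control ears (log2 difference ± SE). Cxcl11 rose by 1.37 ± 0.35 in NICD ears and 1.44 ± 0.29 in control ears, and Cxcl16 by 1.64 ± 0.24 in NICD ears and 1.19 ± 0.20 in control ears. Over all probe sets tested, 20% were called higher with DNFB in NICD mice and 23.7% in control mice (limma, adjusted p below 0.05), so a rise on its own was common in these cells. The shares called lower were 18.1% in NICD mice and 23.6% in control mice. For none of the 4 genes did DNFB and vehicle arrays overlap in either genotype. That was so, in the upward direction, for 19.9% of probe sets in NICD mice and 13.6% in control mice.

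**Figure D1:**
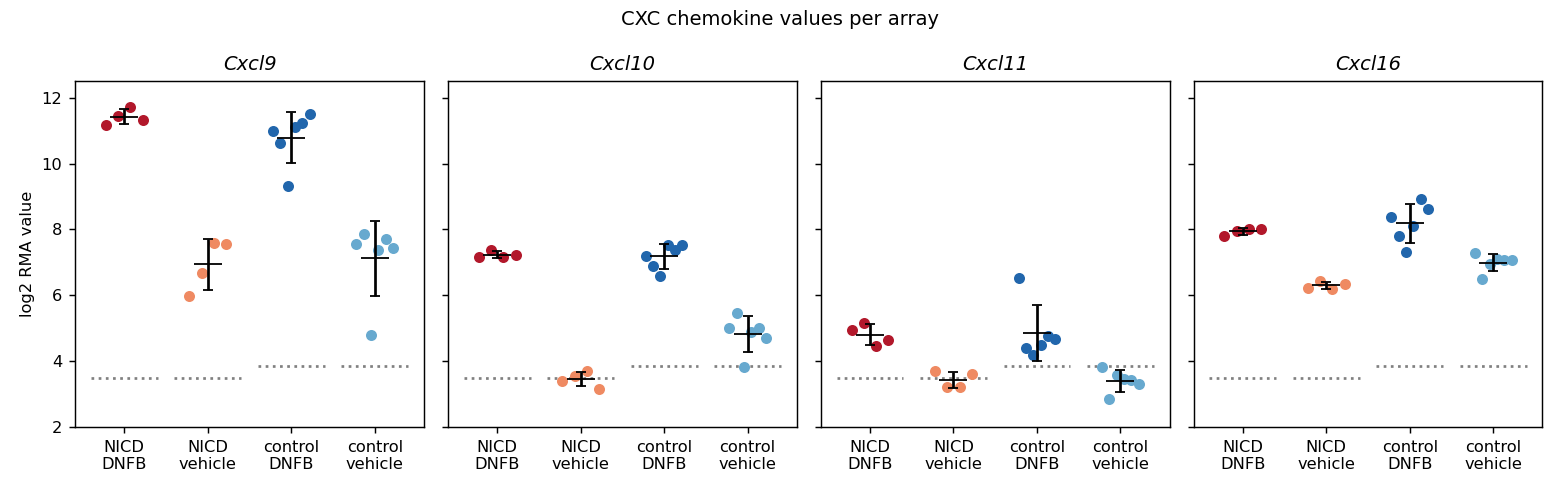
The log2 RMA value of each chemokine (vertical axis) on each array, by group (horizontal axis); points are arrays, bars the mean ± SD (n = 4 for NICD groups, 6 for control groups), and the dotted lines the 95th percentile of the olfactory receptor probe sets in that group. For every gene the DNFB arrays lie above the vehicle arrays of the same genotype, and the lowest Cxcl9 point of each control group is the array numbered 3.

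Cxcl9, a CXCR3 ligand whose induction depends closely on interferon gamma, had log2 values of 11.18, 11.45, 11.71 and 11.33 in NICD DNFB ears, against 5.97, 6.69, 7.58 and 7.56 in NICD vehicle ears. In control ears its lowest, median and highest values were 9.32, 11.04 and 11.50 with DNFB, against 4.82, 7.50 and 7.85 with vehicle. The NICD DNFB arrays lay close together, while the NICD vehicle arrays were widely spread. Apart from replicate 3 at 4.82, the control vehicle arrays lay between 7.37 and 7.85. The lowest value of both control groups came from the array numbered 3. The rise was 22.1-fold in NICD mice (adjusted p = 1.77e-06, limma) and 12.7-fold in control mice (adjusted p = 9.18e-07, limma). Among 14886 probe sets ordered by the log2 difference, Cxcl9 was the 9th highest in NICD mice and the 23rd in control mice. Without both control arrays numbered 3, the rise in control mice was 3.49 ± 0.25.

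Cxcl10, the CXCR3 ligand with NF-kB matches in the sequence above, had log2 values of 7.16, 7.39, 7.16 and 7.24 in NICD DNFB ears, against 3.42, 3.56, 3.70 and 3.18 in NICD vehicle ears. Control ears ran at 6.60, 7.28 and 7.53 with DNFB (lowest, median, highest), against 3.82, 4.96 and 5.48 with vehicle. With DNFB the genotypes overlapped, and with vehicle every NICD array was below every control array. The NICD vehicle values were at the level of the olfactory receptor probe sets, 2 of 4 below their 95th percentile, so the NICD rise may be understated. Its estimate was 13.7-fold (log2 95% interval 3.24 to 4.31, adjusted p = 2.27e-09, limma). In control mice the rise was 5.13-fold (adjusted p = 1.52e-08, limma), and it was 2.27 ± 0.15 on the log2 scale without both arrays numbered 3.

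Cxcl11, the third CXCR3 ligand, is listed by RefSeq for the C57BL/6J assembly as a transcribed pseudogene; the strain of these mice is not in the labels. Its log2 values were 4.94, 5.18, 4.46 and 4.66 in NICD DNFB ears, against 3.70, 3.23, 3.22 and 3.62 in NICD vehicle ears. Control ears ran at 4.20, 4.60 and 6.54 with DNFB (lowest, median, highest), against 2.86, 3.45 and 3.84 with vehicle. The highest value belonged to a single array, control DNFB replicate 1, and the other 5 lay below 5. Of the NICD vehicle arrays 2 of 4, and of the control vehicle arrays all 6, lay below the 95th percentile of the olfactory receptor probe sets, so the rises may be understated. The estimates were 2.58-fold in NICD mice (log2 95% interval 0.64 to 2.09, adjusted p = 0.00381, limma) and 2.71-fold in control mice (0.85 to 2.04, adjusted p = 0.000292, limma). Cxcl11 passed the filter only with its DNFB arrays counted, so the filter favoured a rise, and both calls held with no filter. Without control DNFB replicate 1, the log2 rise in control mice was 1.10 ± 0.17, and without both control arrays numbered 3 it was 1.6 ± 0.31.

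Cxcl16, the membrane-anchored CXCR6 ligand, had log2 values of 7.79, 7.96, 8.03 and 8.0 in NICD DNFB ears, against 6.23, 6.45, 6.20 and 6.34 in NICD vehicle ears. Control ears ran at 7.31, 8.24 and 8.92 with DNFB (lowest, median, highest), against 6.51, 7.07 and 7.28 with vehicle. Its vehicle values were far above the olfactory receptor level in both genotypes, and the NICD arrays of each treatment were tightly grouped. The rise was 3.12-fold in NICD mice (adjusted p = 1.70e-05, limma) and 2.28-fold in control mice (adjusted p = 4.44e-05, limma). In control mice the lowest DNFB array, replicate 3 at 7.31, lay just above the highest vehicle array, replicate 1 at 7.28. Without both arrays numbered 3 the rise in control mice was 1.35 ± 0.18 on the log2 scale.

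**Figure D2:**
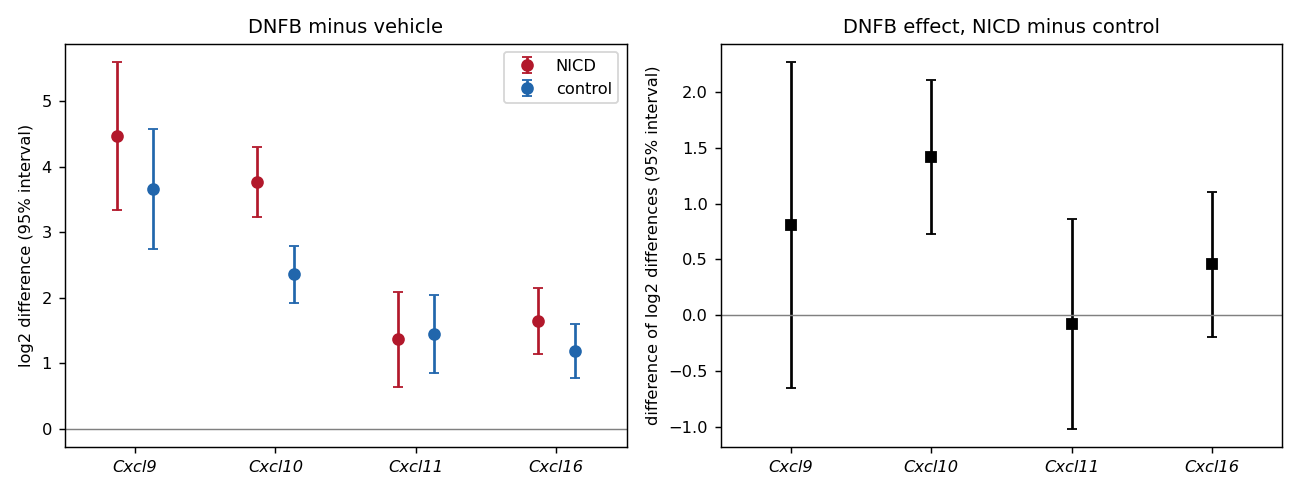
Left, the DNFB minus vehicle log2 difference of each chemokine in NICD and control mice; right, the difference of these differences, NICD minus control; points are limma estimates and bars 95% intervals. All left-hand intervals lie above 0, and on the right only that of Cxcl10 does.

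Whether active Notch1 in endothelium altered the response was asked by the difference of the DNFB effects, NICD minus control, which compares differences taken within each array set. Of all probe sets tested, 0.0134% were called in either direction, which is 2 probe sets, while 1580 had an unadjusted p below 0.05. None of the 4 chemokines was called. For Cxcl10 the difference was 1.42 ± 0.33 (95% interval 0.73 to 2.11), the 7th most positive of 14886, with an unadjusted p of 0.000364 and an adjusted p of 0.109 in limma. This value rests on NICD vehicle arrays near background. Without control vehicle replicate 3 the difference was 1.62 and passed (adjusted p = 0.0309, limma), and without both control arrays numbered 3 it was 1.5 and passed (adjusted p = 0.0199, limma).

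For the other 3 genes the intervals of the difference included 0. Cxcl9 differed by 0.81 (95% interval -0.66 to 2.27, adjusted p = 0.723 in limma), an interval that still holds a larger response in NICD mice of more than 2 log2 units. With each array left out it was 0.48 to 1.27, lowest without NICD vehicle replicate 1 and highest without control vehicle replicate 3, and it was 0.97 without both control arrays numbered 3. Cxcl16 differed by 0.46 (-0.19 to 1.11, adjusted p = 0.637 in limma), by 0.28 without control DNFB replicate 3 and by 0.29 without both arrays numbered 3. Cxcl11 differed by -0.07 (-1.02 to 0.87, adjusted p = 0.970 in limma), by 0.26 without control DNFB replicate 1 and by -0.24 without both control arrays numbered 3. None of these passed. These intervals do not show that the genotypes responded alike.

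Between the genotypes, Cxcl10 was lower in NICD than in control vehicle ears, while its difference in DNFB ears did not pass the test. In vehicle ears the NICD minus control difference of Cxcl10 was -1.36 ± 0.23, with means of 3.46 ± 0.22 in NICD ears (SD, n = 4) and 4.83 ± 0.55 in control ears (SD, n = 6), and it passed with an adjusted p of 0.000276 in limma. Without both control arrays numbered 3 it was -1.56. The NICD values are near background, and the size moved with the scaling. With array medians subtracted it was -1.03 (adjusted p = 0.00433, limma), and the groups then overlapped through control vehicle replicate 3. In DNFB ears Cxcl10 averaged 7.24 ± 0.11 in NICD mice (SD, n = 4) and 7.18 ± 0.37 in control mice (SD, n = 6), a difference of 0.05 (adjusted p = 0.870, limma), or 0.43 after centring (adjusted p = 0.176, limma). The background to these counts is broad: 33.0% of probe sets were called lower in NICD vehicle ears, 22.2% were lower there without overlap, and 40.5% were called in either direction in DNFB ears.

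The direction of those calls turned with the array medians. The median difference over all probe sets tested was -0.28 in vehicle ears and -0.27 in DNFB ears. In vehicle ears 8.01% of the calls were higher in NICD mice as deposited and 64.5% after centring; in DNFB ears the shares were 13.4% as deposited and 71.8% after centring. Cxcl16 was lower in NICD vehicle ears, with means of 6.30 ± 0.11 in NICD mice (SD, n = 4) and 7.0 ± 0.26 in control mice (SD, n = 6), no overlap and a difference of -0.69 ± 0.22 (adjusted p = 0.0194, limma). That call was lost after centring, at -0.37 (adjusted p = 0.280, limma), and without NICD vehicle replicate 3, at -0.66 (adjusted p = 0.0512, limma). Without both control arrays numbered 3 the difference was -0.7 and passed (adjusted p = 0.0083, limma).

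Cxcl9 and Cxcl11 did not pass in either comparison of genotypes. In DNFB ears Cxcl9 averaged 11.42 ± 0.23 in NICD mice (SD, n = 4) and 10.79 ± 0.77 in control mice (SD, n = 6), a difference of 0.63 as deposited (adjusted p = 0.321, limma) and 1.00 after centring (adjusted p = 0.131, limma), where the groups did not overlap. It was 0.34 as deposited without both control arrays numbered 3, or without the DNFB array alone. In vehicle ears its difference was -0.17 as deposited, 0.15 after centring and -0.64 without both of these arrays (adjusted p = 0.0678, limma). Cxcl11 differed by -0.05 in DNFB ears and 0.03 in vehicle ears as deposited, and by 0.33 in DNFB ears and 0.36 in vehicle ears after centring. Cxcl16 in DNFB ears differed by -0.24 as deposited (adjusted p = 0.404, limma), 0.13 after centring and -0.41 without both control arrays numbered 3 (adjusted p = 0.0860, limma). For these genes the sign of the genotype difference thus turned with the scaling, except for Cxcl9 in DNFB ears and for Cxcl11 and Cxcl16 in vehicle ears.

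Within groups, Cxcl9 and Cxcl10 varied together, and Cxcl11 did not vary with either. After the group mean was subtracted from each array, r over 20 arrays was 0.82 between Cxcl9 and Cxcl10. It was 0.35 over the 18 arrays left without the control arrays numbered 3, which were the lowest of their groups for both genes. Cxcl11 had r of 0.02 with Cxcl9 and -0.04 with Cxcl10. Cxcl16 had r of 0.40 with Cxcl9, 0.30 with Cxcl10 and 0.41 with Cxcl11, and the last was 0.56 over the 19 arrays without control DNFB replicate 1. The genes of a pair share each array's RNA and scaling.

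**Figure D3:**
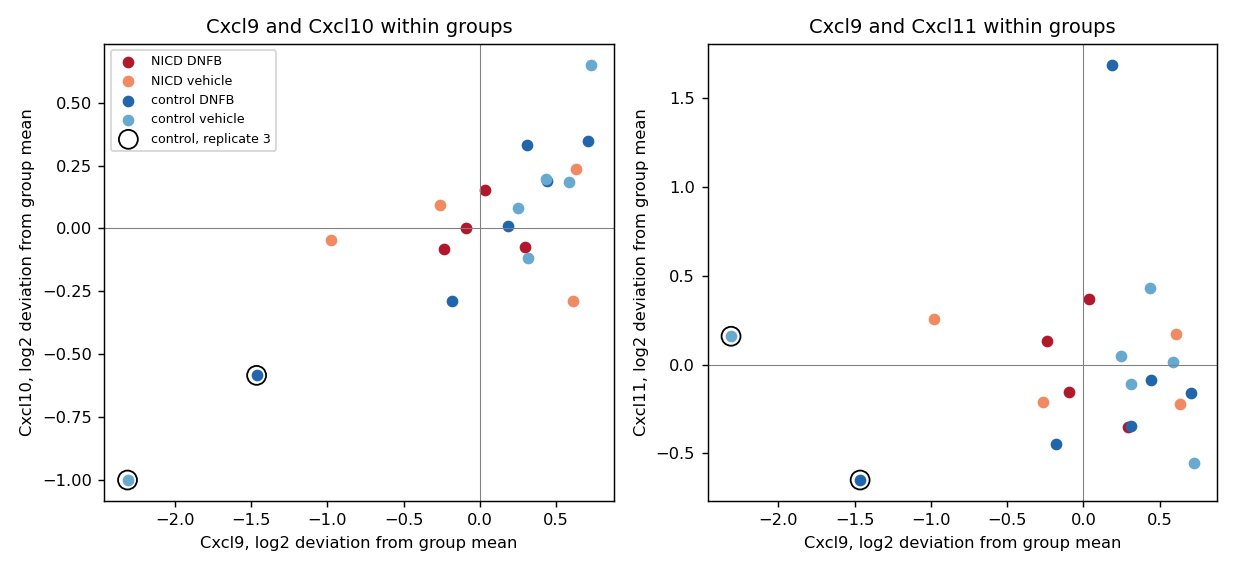
Each array's log2 deviation from its group mean for Cxcl9 (horizontal axis) against that for Cxcl10 (left, vertical axis) or Cxcl11 (right, vertical axis), coloured by group, with the control arrays numbered 3 circled. On the left the circled arrays lie far towards the lower corner, and on the right 1 control DNFB array stands alone at the top.

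The genes most alike to each chemokine were ranked by Pearson's r over the 20 arrays after each genotype's mean was subtracted, a measure that the shared DNFB response dominates. For Cxcl9 they were Socs1 (0.97), Cxcl10 (0.97), Cycs (0.97), Hdc (0.97) and Mlkl (0.96). Socs1 encodes an inhibitor of JAK kinases, Cycs cytochrome c, Hdc the enzyme that makes histamine, and Mlkl the effector of necroptosis. For Cxcl10 they were Psmb2 (0.97), Socs1 (0.97), Bcat1 (0.97), Cxcl9 (0.97) and Ifi205 (0.96), with Psmb2 a proteasome subunit, Bcat1 an aminotransferase of branched-chain amino acids and Ifi205 an interferon-inducible gene. Cxcl9 and Cxcl10 thus each stood among the 5 genes most alike to the other.

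Cxcl11 and Cxcl16 had other neighbours in this ranking. For Cxcl11 they were Gzmb, which encodes the granzyme B protease of cytotoxic lymphocytes (0.92), Rer1 (0.92), Fcf1 (0.91), Ywhab (0.91) and Sltm (0.91). Gzmb was 6.39 in control DNFB replicate 1, the highest of any array, and that array was also the highest for Cxcl11. For Cxcl16 they were Pola2, a subunit of DNA polymerase alpha (0.98), Calhm6 (0.96), the proteasome subunit Psma6 (0.96), the mitochondrial ribosomal gene Mrpl21 (0.96) and the carbonic anhydrase gene Car13 (0.96).

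Of the receptors and proteases of these ligands, few were called with DNFB. Cxcr3 averaged 4.37 in NICD DNFB ears, 4.11 in NICD vehicle ears, 3.68 in control DNFB ears and 3.81 in control vehicle ears, and passed for DNFB in neither genotype. Cxcr6 and Dpp4, the peptidase that trims CXCR3 ligands, were below the filter, with Cxcr6 group means between 2.60 and 2.98. Adam10 fell by 0.50 in control mice (adjusted p = 0.000945, limma), and its difference in NICD mice was -0.35 (adjusted p = 0.0522, limma). Ackr3, an atypical receptor that takes up CXCL11 and CXCL12, rose by 0.49 in control mice (adjusted p = 0.0268, limma), and its difference was 0.11 in NICD mice. Adam17 did not pass in either genotype. Of the 4 of 6 genes in this list that were tested, none passed in NICD mice and 1 rose and 1 fell in control mice, beside the shares of 23.7% higher and 23.6% lower over all probe sets there. Without both control arrays numbered 3, 1 gene of this list fell in NICD mice. Over all probe sets tested the median difference was 0.0067 in NICD mice and -0.0012 in control mice; that of this list was 0.09 in NICD mice and -0.0010 in control mice.

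Genes of interferon gamma signalling moved partly with the chemokines. Of 16 listed, 12 were tested. In NICD mice 7 rose and 1 fell, beside 20% of all probe sets called higher and 18.1% lower. In control mice 6 rose and 1 fell, beside 23.7% higher and 23.6% lower. The list's median difference was 0.38 in NICD mice and 0.24 in control mice. Irf8, a transcription factor induced by interferon gamma, rose by 2.35 ± 0.19 in NICD mice and 1.64 ± 0.15 in control mice. The feedback inhibitors Socs1 (1.31 in NICD mice, 0.82 in control mice), Ptpn2 (1.15 in NICD mice, 1.55 in control mice) and Socs3 (0.82 in NICD mice, 0.38 in control mice) rose in both genotypes. The receptor gene Ifngr1 fell by 0.47 in NICD mice and by 0.64 in control mice, while Ifngr2 did not pass.

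The transcript of the cytokine itself lay near background. Ifng was below the filter and so was not tested, with group means of 3.43 in NICD DNFB ears, 3.09 in NICD vehicle ears, 3.15 in control DNFB ears and 3.15 in control vehicle ears. In NICD DNFB ears its median was 3.49 and its highest value 3.59, beside an olfactory receptor 95th percentile of 3.5. In the other groups every array was below that percentile. Irf1, a transcription factor gene induced early by interferons, rose by 0.42 in NICD mice (adjusted p = 0.0127, limma) and had a difference of 0.09 in control mice (adjusted p = 0.479, limma).

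Interferon gamma induced genes other than the chemokines rose about as often as probe sets in general. Of 25 listed, 19 were tested; 4 rose and none fell in NICD mice, and 4 rose and 1 fell in control mice, beside 20% of all probe sets called higher in NICD mice and 23.7% in control mice. The median difference was 0.42 in NICD mice and 0.05 in control mice. Ubd, which encodes the ubiquitin-like protein FAT10, rose by 3.48 ± 0.45 in NICD mice and 2.25 ± 0.37 in control mice. The immunity-related GTPase Irgm1 (1.06 in NICD mice, 0.74 in control mice) and the peptide transporter Tap1 (0.91 in NICD mice, 0.71 in control mice) rose in both genotypes. Iigp1 rose by 0.44 in NICD mice, with a difference of 0.07 in control mice (adjusted p = 0.664, limma). Igtp rose by 0.78 in control mice, and its difference of 0.79 in NICD mice did not pass (adjusted p = 0.0948, limma). Gbp9 fell by 1.25 in control mice, with a difference of -0.37 in NICD mice (adjusted p = 0.123, limma). Without NICD vehicle replicate 4, 3 rose in NICD mice. Without both control arrays numbered 3, 9 rose in NICD mice and 4 rose and 2 fell in control mice. Cxcl9 and Cxcl10 kept their calls in both genotypes there.

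Type I interferon genes were also mixed. Of 22 induced genes listed, 19 were tested. In NICD mice 9 rose and 2 fell, beside 20% of all probe sets called higher and 18.1% lower. In control mice 2 rose and 3 fell, beside 23.7% higher and 23.6% lower. The median difference was 0.39 in NICD mice and 0.11 in control mice. Oasl1, an antiviral gene, rose by 1.62 in NICD mice and 1.66 in control mice, and Dhx58, an RNA sensor of the RIG-I family, rose by 1.44 in NICD mice. Rsad2 fell by 0.93 in NICD mice and by 1.06 in control mice, and Cmpk2, the gene next to it, fell by 0.65 in NICD mice and by 1.12 in control mice. Without both control arrays numbered 3, 11 rose in NICD mice and 4 in control mice. Without NICD vehicle replicate 4, 5 rose and 1 fell in NICD mice. Of 7 tested signalling genes, 2 fell in NICD mice and 3 in control mice, among them the kinase gene Tyk2 (-1.22 in NICD mice, -1.24 in control mice) and the receptor gene Ifnar1 (-1.0 in NICD mice, -0.87 in control mice). Without both control arrays numbered 3, 2 of the signalling genes fell in control mice.

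Part of the NF-kB and TNF list rose in each genotype. Of 17 tested among 18 listed, 9 rose and none fell in NICD mice, and 10 rose and 3 fell in control mice, while 8 did not pass in NICD mice and 4 in control mice, with median differences of 0.36 in NICD mice and 0.41 in control mice. Over all probe sets 20% were called higher and 18.1% lower in NICD mice, and 23.7% higher and 23.6% lower in control mice. Without NICD vehicle replicate 4, 8 of the list rose in NICD mice. Tnf, the cytokine gene, rose by 3.26 ± 0.43 in NICD mice and 2.04 ± 0.35 in control mice. Tnfaip2 rose by 2.23 in NICD mice and 1.88 in control mice, and the adaptor gene Traf1 by 1.16 in NICD mice and 0.91 in control mice. The falls in control mice were in the inhibitor genes Nfkbie, Nfkbiz and Nfkbia, by between 0.21 and 0.40, and without both control arrays numbered 3, 8 of the list rose in NICD mice and 9 rose and none fell in control mice.

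**Figure D4:**
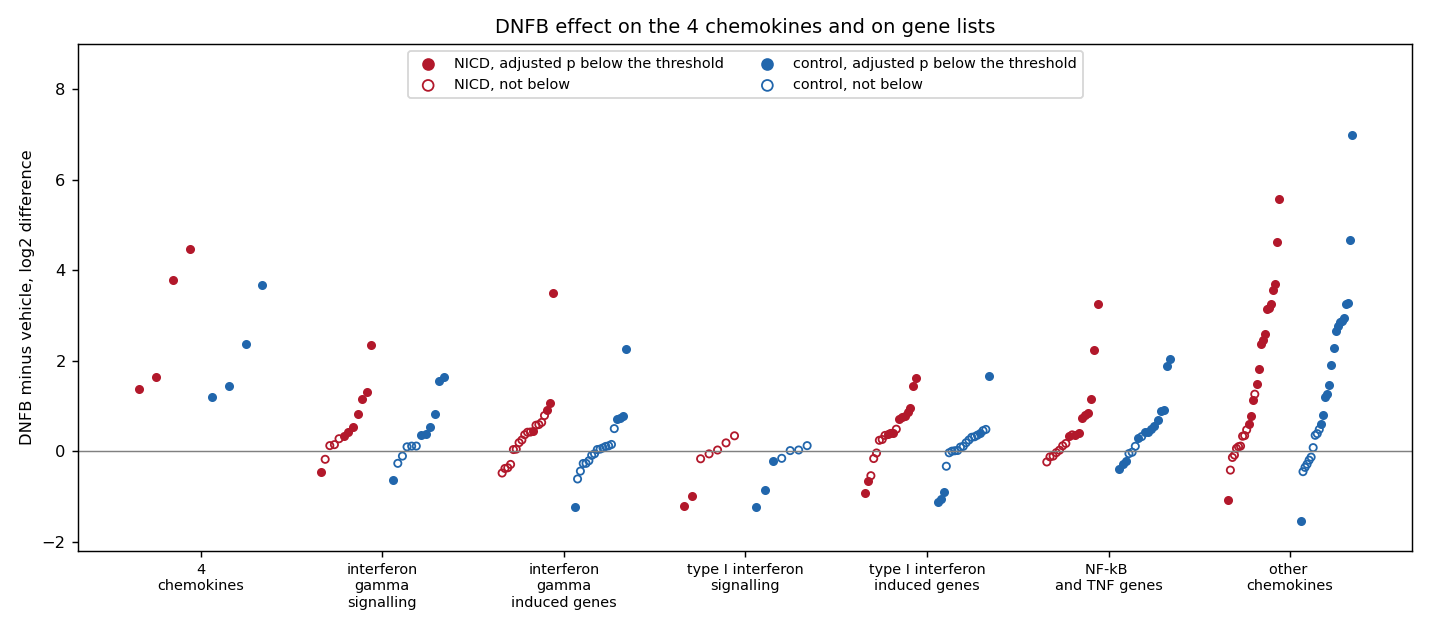
The DNFB minus vehicle log2 difference (vertical axis) of the 4 chemokines and of each tested gene of 6 lists (horizontal axis), for NICD and control mice; each point is a gene, sorted within its list, and filled where the adjusted p is below 0.05. The list of other chemokines holds filled points above 4 in both genotypes, while most interferon gamma induced genes are open points near 0.

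More than 1 in 2 of the other chemokines tested rose as well. Of 31 listed, 26 were tested; 15 rose and 1 fell in NICD mice, and 16 rose and 1 fell in control mice, while 10 did not pass in NICD mice and 9 in control mice. Of all probe sets tested, 20% were called higher and 18.1% lower in NICD mice, and 23.7% higher and 23.6% lower in control mice. The median difference of the list was 1.19 in NICD mice and 1.23 in control mice. The neutrophil attractants Cxcl3 (5.58 ± 0.33 in NICD mice, 6.99 ± 0.27 in control mice) and Cxcl5 (3.70 ± 0.28 in NICD mice, 4.67 ± 0.23 in control mice) rose in both genotypes, as did the monocyte attractant Ccl2 (3.57 ± 0.27 in NICD mice, 3.24 ± 0.22 in control mice). Ccl3, an attractant of monocytes and other leukocytes, rose by 4.62 ± 0.52 in NICD mice and 2.85 ± 0.42 in control mice. Cxcl12, the ligand of CXCR4, was the only one that fell, by 1.07 in NICD mice and by 1.54 in control mice.

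The array neighbours of the chemokine genes on the chromosome, chosen after the data were seen, did not all move with them. In RefSeq's gene order on chromosome 5, Sdad1 next to Cxcl9 rose by 1.58 in NICD mice and 1.57 in control mice, and Nup54, a nuclear pore gene next to Cxcl11, by 0.93 in NICD mice and 1.23 in control mice. Art3, whose annotated span holds Cxcl10 and Cxcl11, fell by 0.42 in control mice (adjusted p = 0.00726, limma) and had a difference of -0.19 in NICD mice. Scarb2, beyond Nup54, fell by 0.45 in control mice. On chromosome 11, Zmynd15, which overlaps Cxcl16, did not pass in either genotype, with 0.49 in NICD mice and 0.01 in control mice. Pelp1 rose by 0.47 in NICD mice and 0.48 in control mice.

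**Figure D5:**
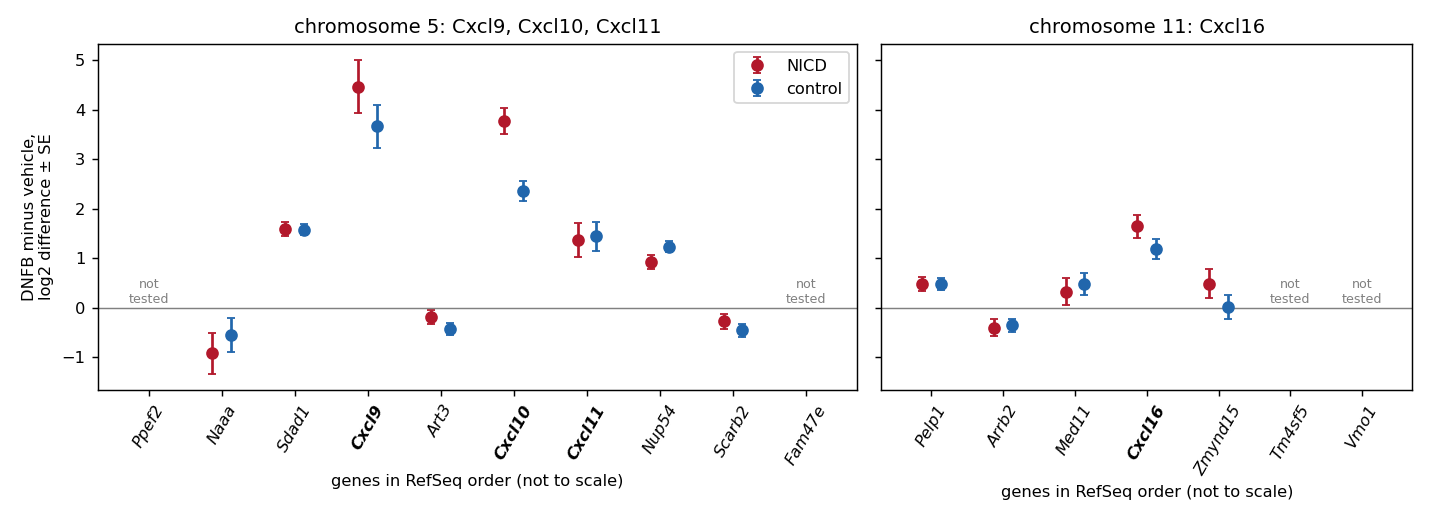
The DNFB minus vehicle log2 difference ± SE (vertical axis) of the 4 chemokines, in bold, and of the genes around them in RefSeq order (horizontal axis, not to scale) for NICD and control mice. Cxcl9 and Cxcl10 stand above the genes on either side, with Art3 between them below 0.

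The sorted samples were endothelial by their markers and also carried leukocyte, keratinocyte and fibroblast transcripts, some of which moved with DNFB. Pecam1, which encodes CD31, averaged 11.48 in NICD DNFB ears, 11.72 in NICD vehicle ears, 11.51 in control DNFB ears and 11.72 in control vehicle ears, and Cdh5 was above 11 in each group. Of 15 endothelial markers, 1 rose and 8 fell in NICD mice, and 7 fell there without NICD vehicle replicate 4. In control mice 13 fell, or 11 without both control arrays numbered 3. Over all probe sets 18.1% were called lower in NICD mice and 23.6% in control mice. Ptprc, which encodes the CD45 used to exclude leukocytes, rose by 1.56 ± 0.32 in NICD mice and 1.21 ± 0.26 in control mice; its means were 4.86 in NICD DNFB ears, 3.30 in NICD vehicle ears, 5.00 in control DNFB ears and 3.79 in control vehicle ears. Of 15 tested monocyte, macrophage and dendritic cell markers of 20, 6 rose in NICD mice and 7 rose and 1 fell in control mice. Without NICD vehicle replicate 4, 1 of these also fell in NICD mice. Of 7 tested neutrophil markers of 12, 6 rose in NICD mice and 7 in control mice. S100a8 and Retnlg were below the array median on every vehicle array, so they passed the filter through DNFB arrays alone. The filter thus favoured rises among the markers tested. Ly6g, Ngp, Camp, Ltf and Elane were below the filter and averaged below the array median in every group. Over all probe sets 20% were called higher in NICD mice and 23.7% in control mice.

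The summed level of the neutrophil markers, on the log2 scale, was 9.01 to 9.30 in NICD DNFB ears, 6.78 to 7.02 in NICD vehicle ears, 8.78 to 10.90 in control DNFB ears and 6.83 to 7.07 in control vehicle ears. That of the monocyte, macrophage and dendritic cell markers was 9.66 to 9.96 in NICD DNFB ears, 9.15 to 9.60 in NICD vehicle ears, 9.49 to 10.12 in control DNFB ears and 9.20 to 9.54 in control vehicle ears. That of the T and natural killer cell markers was 7.22 to 7.62 in NICD DNFB ears, 7.11 to 7.31 in NICD vehicle ears, 7.58 to 8.16 in control DNFB ears and 7.32 to 7.84 in control vehicle ears. Of 8 tested among these 18 markers, 1 rose in each genotype, Gzmb. It was below the array median on every vehicle array, and so it was tested through its DNFB arrays alone. Over all probe sets 20% were called higher in NICD mice and 23.7% in control mice. Without both control arrays numbered 3, 1 of the 8 also fell in control mice. The defining T cell marker Cd3e had group means between 3.40 and 3.78 and the macrophage marker Adgre1 was below the filter, with means between 2.75 and 3.30. The neutrophil sums of DNFB and vehicle ears did not overlap in either genotype, and neither did the endothelial sums, which were lower with DNFB. The endothelial sums were 13.93 to 14.17 in NICD DNFB ears, 14.25 to 14.43 in NICD vehicle ears, 13.74 to 14.06 in control DNFB ears and 14.36 to 14.59 in control vehicle ears. The monocyte, macrophage and dendritic cell sums did not overlap in NICD mice. Of single probe sets, 19.9% were higher with DNFB without overlap in NICD mice and 13.6% in control mice. In either direction, 37.3% did not overlap in NICD mice and 26.9% in control mice.

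Some keratinocyte and fibroblast markers were called too. Of 10 tested keratinocyte markers of 11, 3 rose and 1 fell in NICD mice, and 4 rose and 2 fell in control mice. Over all probe sets 20% were called higher and 18.1% lower in NICD mice, and 23.7% higher and 23.6% lower in control mice. The keratin genes of inflamed epidermis Krt6a (4.82 in each genotype), Krt16 (5.10 in NICD mice, 5.93 in control mice) and Krt17 (3.31 in NICD mice, 3.61 in control mice) rose in both genotypes. Krt15 fell by 1.79 in NICD mice and by 2.03 in control mice. Krt10 fell by 0.61 in control mice, with a difference of -0.65 in NICD mice (adjusted p = 0.0836, limma). Krt14, the keratin of basal keratinocytes, averaged 11.30 in NICD DNFB ears, 11.08 in NICD vehicle ears, 11.64 in control DNFB ears and 11.08 in control vehicle ears. The summed keratinocyte level was 12.03 to 12.62 in NICD DNFB ears, 11.69 to 12.39 in NICD vehicle ears, 11.98 to 13.50 in control DNFB ears and 11.48 to 12.49 in control vehicle ears. Of 14 fibroblast and pericyte markers, 2 rose and 7 fell in NICD mice, and 3 rose and 6 fell in control mice, among them Lum (1.69 in NICD mice, 2.09 in control mice) and the pericyte gene Higd1b (-2.51 in NICD mice, -2.89 in control mice). In NICD mice 6 fell without both control arrays numbered 3, and 1 rose without NICD vehicle replicate 4. The summed level of these 14 markers was 11.71 to 12.24 in NICD DNFB ears, 12.44 to 12.92 in NICD vehicle ears, 12.34 to 12.88 in control DNFB ears and 12.79 to 13.03 in control vehicle ears. The sums of the NICD groups did not overlap, as for 37.3% of single probe sets there in either direction. Of 6 tested lymphatic endothelial markers of 7, 5 were called higher in NICD than in control vehicle ears, or 6 after centring. In DNFB ears 4 were, on either scale. The shares of all probe sets called higher, as deposited, were 2.88% in vehicle ears (428 probe sets) and 5.45% in DNFB ears (811 probe sets). After centring 1767 probe sets were called higher in vehicle ears and 3074 in DNFB ears. The centred marker counts thus stand beside a larger background. The part of leukocyte, keratinocyte, fibroblast or lymphatic RNA in the chemokine values was not tested. In sorted bulk samples a change in the share of cells and a change in RNA per cell cannot be told apart.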

How the data were processed

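Groups were read from the sample titles. What the authors deposited are log2 values per probe set from RMA (robust multi-array average) in Affymetrix Expression Console, as listed in the submitters' processing notes; versions and options are not given in the sources used here. Of 41345 probe sets, 23521 carry a single gene symbol, 1814 carry several and 16010 carry no symbol. Tested were the 14886 single-symbol probe sets that exceeded the array median on 4 or more of the 20 arrays. limma 3.58.1 in R 4.3.3 (lmFit, eBayes) estimated each group's mean from all arrays together, with Benjamini-Hochberg adjustment over all 14886 and a threshold of 0.05. The labels do not say that replicates are separate mice, so p-values measure the spread between these samples. The number of arrays limits the precision.

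The 4 genes, the gene lists and the marker lists were chosen with earlier results of these data known. Genes named were the 4 chemokines, the axis genes Ifng, Ifngr1, Ifngr2, Irf1, Cxcr3, Cxcr6, Ackr3, Dpp4, Adam10 and Adam17, up to 4 genes per list and comparison with the largest called differences, the markers Pecam1, Cdh5, Ptprc, Cd3e and Adgre1, and the 5 genes most alike to each chemokine; 1 listed gene is not reported here. Cxcl12, Krt14, Krt10, Nfkbie, Nfkbiz, Nfkbia, the neutrophil markers below the filter and the chromosomal neighbours were chosen after their values were seen. Markers below the filter enter the summed levels, which are log2 of sums of linear values. The script was tested on simulated data. Alternatives were no filter, a stricter filter at the 60th percentile, all probe sets, quantile normalization, median centring, trended and robust variances, array weights, replicate blocks and each array left out. Replicate numbers were not treated as pairs, since the labels do not tie them to a shared animal or batch and not every same-number correlation exceeded 0.1. Promoter sequences are RefSeq's (GRCm38.p6). matplotlib 3.10.9 (Python 3.11.15) drew the figures.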

Additional observations from a re-analysis of the deposited data

Results flagged for a closer look

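In 16 combinations of chemokine and group searched for a single array far from the others, 2 were found, and chance gives about 1 in 20 combinations. Cxcl9 was 4.82 in control vehicle replicate 3, the lowest of 6 arrays, and the gap to the next array was 0.842 of the group's whole range, past the limit used. Cxcl11 was 6.54 in control DNFB replicate 1, the highest of 6 arrays, with a gap of 0.759 of the range, past the same limit.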

How the results depend on the processing

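The DNFB rises of all 4 chemokines in both genotypes kept their direction and their call under every alternative run: the log2 rise of Cxcl9 stayed within 4.14 to 4.68 in NICD mice and 3.20 to 3.95 in control mice, and that of Cxcl10 within 3.68 to 3.85 in NICD mice and 2.16 to 2.49 in control mice. The number of probe sets called for the difference of effects, 2 as reported, was 1 with no filter, 0 over all probe sets, 1 after quantile normalization, 27 with trended and robust variances, 17 with array weights, 0 to 29 with each array left out and 4 without both control arrays numbered 3, which was added after the data were seen. The Cxcl10 difference of effects was 1.29 to 1.62 with each array left out, passing only without control vehicle replicate 3, and 1.5 without both arrays numbered 3. That of Cxcl11 was 0.087 after quantile normalization and -0.20 to 0.26 with each array left out.

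The NICD minus control calls numbered 6036 in DNFB ears and 5343 in vehicle ears as reported, against 3553 and 2412 after quantile normalization and 4283 and 2741 after centring. In DNFB ears the Cxcl10 difference was -0.062 to 0.12 with each array left out and -0.062 without both arrays numbered 3; that of Cxcl11 was 0.37 after quantile normalization, 0.33 after centring and -0.18 to 0.29 with each array left out; that of Cxcl16 was 0.13 after centring. In vehicle ears Cxcl9 differed by 0.0095 after quantile normalization, 0.15 after centring and -0.64 to 0.15 with each array left out, and Cxcl11 by -0.00016 with array weights and -0.081 to 0.12 with each array left out. The Cxcl16 difference there was -0.49 after quantile normalization, -0.37 after centring and -0.79 to -0.64 with each array left out. The cause of these shifts was not tested.

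Same-numbered arrays had correlated deviations of 0.0418 to 0.269, not all over 0.1, and no label ties a number to a shared animal or batch, so the numbers were not treated as pairs. That 7 of 10 correlated best with their own number is a hint of shared structure from the data, not the design. With the replicate number as a fixed block, 1 probe set was called for the difference of effects, Cxcl9 differed by 0.081, Cxcl11 by -0.013 and Cxcl16 by -0.53 (adjusted p = 0.0602, limma) between genotypes in vehicle ears. With a random replicate block, 20 were called. The block ended no other call on the 4 chemokines. Values near background limit Cxcl11 in vehicle ears and Cxcl10 in NICD vehicle ears.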
